A study of Mus musculus with 5 samples.

Results

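Macrophages grown from the bone marrow of C3H/HeJ mice were compared late and early in a time course of bacterial lipopolysaccharide (LPS): the arrays of 7 and 21 h formed the late side and those of 0 and 2 h the early side. C3H/HeJ carries a mutation in Tlr4, the LPS receptor, and responds poorly to LPS; all 4 arrays share that allele. Per the labels, human CSF-1, which drives marrow precursors to become macrophages, was used to differentiate the cells in vitro. The LPS came from Salmonella minnesota, was given at 10 µg/ml, and had acted for 2, 7 and 21 h on 3 of the arrays; the 0 h array stood at the start of the course. Each array was a two-colour cDNA array that set macrophage RNA against RNA of whole C57BL6/J embryos of 17.5 days, so each value is a ratio to a mixed tissue of another strain. The 0.5 h array of the same course was left out of the comparison and is used only as a separate reading. How many mice or cultures stood behind an array is not given in the sources used here. The 4 arrays are 4 different times, so the 2 of a side are not replicates.

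A gene was described as late higher when both late arrays lay above both early arrays, and as late lower when both lay below, after each array had been centred on its median and the probes of a gene averaged. Of 8839 genes with a value on all 4 arrays, 3047 met one of these conditions, which is 34.5% of those genes. If the 4 arrays were interchangeable, a gene would meet one of the conditions with a probability of 0.333. The observed share is close to that, so the count by itself does not show a difference between the sides. Late higher genes numbered 2018 (22.8%) and late lower genes 1029 (11.6%), while in 5792 genes the sides overlapped. Values are deposited log ratios. No source states their base; they were read as base 10, on which 0.30 stands for a 2-fold difference. Gene values are given in the order 0 and 2 h for the early and 7 and 21 h for the late arrays. The direction, macrophage over embryo, is likely rather than stated, and was judged from marker genes: 14 macrophage genes had a median of 0.56 and 0.74 early and 0.61 and 0.65 late, while 23 genes that mark embryonic tissues had a median of -0.62 and -0.85 early and -0.67 and -0.66 late. Of the macrophage genes, Cd68 and Tyrobp lay below 0 on all 4 arrays, and of the embryonic genes Igf2bp1 lay above 0 on all 4 and the other 22 below. Every sign below rests on that reading. In these bulk samples, fewer cells of a type and less RNA per cell cannot be told apart.

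The arrays differed in spread as well as in time. The SD of the centred ratios over genes was 0.27 and 0.39 on the early and 0.30 and 0.28 on the late arrays, so the 2 h array had the widest range of ratios. The median absolute difference between the early pair of arrays was 0.080 and between the late pair 0.12, beside 0.083 to 0.12 for the 4 pairs of 1 late and 1 early array. The arrays of a side were therefore about as far apart as arrays of different sides. Among late higher genes, the 2 h array lay below the 0 h array in 1402 (69.5%), and among late lower genes above it in 717 (69.7%). The share over all genes was not counted for these 2 arrays, so neither share can be called particular to these genes. The 21 h array lay above the 7 h array in 973 late higher genes (48.2%), beside 45.3% of all genes.

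No single gene passed a test across all genes. With limma's moderated test of 2 arrays against 2 and Benjamini-Hochberg adjustment over 8839 genes, 0 genes (0.0%) had an adjusted p under 0.05, and the smallest adjusted p was 0.915. At an unadjusted p under 0.05 limma counted 225 genes (2.55%). Of these, 147 (1.66%) had a late mean above the early mean and 78 (0.882%) one below it, whether or not the sides overlapped. A fit with an intensity trend and robust variance also gave 0 adjusted calls. An exact permutation of 2 against 2 arrays cannot give a two-sided p below 0.333. The spread that limma used is that between different times of a side, which holds array error and any difference between those times together. All gene values below are therefore descriptions of 4 arrays, and higher and lower are used in that sense only.

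The differences were mostly small. The median difference of the late from the early mean was 0.024 over all genes, 0.13 among late higher genes and -0.13 among late lower genes, beside a median limma standard error (SE) of 0.089. Past a 2-fold difference of means without overlap were 89 late higher genes (1.01%) and 137 late lower genes (1.55%). The gap between the nearest late and early arrays, called the separation here, was itself 2-fold or more in 5 late higher and 8 late lower genes. Leaving out 1 array makes the condition of no overlap easier to meet. Late higher genes then numbered 3576 without 0 h, 2860 without 2 h, 3502 without 7 h and 4254 without 21 h. Late lower genes numbered 2279 without 0 h, 1851 without 2 h, 2994 without 7 h and 2456 without 21 h. At 2-fold, late higher genes numbered 287 without 0 h, 102 without 2 h, 376 without 7 h and 322 without 21 h. Late lower genes at 2-fold numbered 543 without 0 h, 97 without 2 h, 423 without 7 h and 401 without 21 h. Without the 2 h array the 2-fold late lower count thus fell below the 137 of the full comparison, although overlap was easier to avoid. That count therefore rested in part on the 2 h array, which had the widest range of ratios. The unadjusted limma count became 443 without 0 h, 38 without 2 h, 794 without 7 h and 518 without 21 h. Among genes without overlap, 66.2% were late higher; without centring the share was 53.2% (1583 higher and 1390 lower), and after a loess correction for each gene's mean ratio 50.1% (1399 and 1394).

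The pathway lists with the largest shares of late higher genes belonged to the making, folding and breakdown of proteins and to mitochondrial respiration. Markers of fibroblasts (60.0%) and of embryonic tissues (43.5%), which macrophages should lack, were late higher in shares above that of all genes too, and their part in the other lists was not tested. Ribosomes make proteins, chaperones of the cytosol, the mitochondria and the endoplasmic reticulum (ER) fold them, and the proteasome and the lysosome break them down. In macrophages these systems serve secretion, the uptake of particles and the turnover of receptors. On the other side stood the immediate early genes, transcription regulators whose messages appear within minutes of a stimulus and decay quickly, which LPS is known to induce through its receptor.

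Chaperones had the highest share of late higher genes among the 19 pathway lists, with 14 of 24 measured members (58.3%, beside 22.8% of all genes), and 1 late lower. The median difference of the list was 0.097, beside 0.024 over all genes. By limma 3 of the 24 had an unadjusted p under 0.05 and 0 an adjusted p under 0.05. Hspe1 encodes the co-chaperone of the mitochondrial chaperonin. Its ratio was 0.031 and -0.0075 early and 0.26 and 0.37 late, a difference of 0.30 (SE 0.077, limma), or 2.00-fold read as base 10. Both late arrays stood well above both early ones, which lay close together. Hspa8, the constitutive HSP70 of the cytosol, was at 0.17 and 0.063 early and 0.39 and 0.34 late, and Hspa1a, the stress-inducible HSP70, at 0.27 and 0.16 early and 0.36 and 0.31 late. Hspd1, the mitochondrial chaperonin itself, was at -0.033 and -0.085 early and -0.0084 and 0.10 late, so that its late side cleared the early side by only 0.025. Cct5, a subunit of the cytosolic chaperonin, differed by 0.13 and was late higher, whereas in Cct3, another subunit, the sides overlapped.

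Several ER chaperones were late higher as well. Pdia3, an oxidoreductase that folds glycoproteins, was at 0.17 and 0.10 early and 0.44 and 0.35 late, and each of its 3 probes by itself had both late arrays above both early arrays. Hsp90b1, the HSP90 of the ER, was at 0.24 and 0.22 early and 0.34 and 0.54 late, on both of its probes. Hspa5, the HSP70 of the ER, was at 0.21 and 0.21 early and 0.31 and 0.29 late, on 2 of 3 probes. In these 3 genes the early arrays lay within 0.1 of each other and below both late arrays. The lectin chaperone Canx differed by 0.13, Calr, its soluble relative, by 0.10, and the oxidoreductase Pdia6 by 0.12; in Calr 1 of 2 probes was late higher and the other late lower. Dnajb9, a co-chaperone of Hspa5, was the late lower member, at -0.0036 and 0.20 early and -0.14 and -0.037 late. The stress regulators Atf4, Ddit3 and Xbp1, which encode transcription factors of the unfolded protein response, had overlapping sides, with differences of -0.095, 0.12 and -0.028.

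The promoters of 5 of these ER chaperones are shown because all 5 hold the same element and all 5 genes were late higher. They were picked for both, so that the 2 go together here is no result. The ER stress element, CCAAT and CCACG with 9 bases of any kind between them, searched on both strands, is known as a binding site of the factor ATF6 in ER chaperone genes. The sequences are the 250 bases before the start of each gene, from RefSeq (GRCm38.p6), 5′ to 3′ on the gene's strand, with the element in capitals. They lie at chr2:34771840-34772089 (plus strand) for Hspa5, chr10:86705445-86705694 (minus) for Hsp90b1, chr8:84846932-84847181 (minus) for Calr, chr11:50325674-50325923 (minus) for Canx and chr12:17266339-17266588 (plus) for Pdia6.
Hspa5: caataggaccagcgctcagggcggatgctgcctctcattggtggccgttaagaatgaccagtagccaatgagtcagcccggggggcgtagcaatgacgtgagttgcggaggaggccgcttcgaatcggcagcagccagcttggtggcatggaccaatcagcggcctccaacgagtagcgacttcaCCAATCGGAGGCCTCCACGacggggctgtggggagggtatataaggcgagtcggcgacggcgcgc
Hsp90b1: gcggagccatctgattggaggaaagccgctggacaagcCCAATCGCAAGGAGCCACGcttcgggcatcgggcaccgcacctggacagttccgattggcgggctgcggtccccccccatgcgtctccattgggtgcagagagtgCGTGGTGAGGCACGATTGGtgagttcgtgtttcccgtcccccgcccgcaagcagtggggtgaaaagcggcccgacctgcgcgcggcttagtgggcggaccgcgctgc
Calr: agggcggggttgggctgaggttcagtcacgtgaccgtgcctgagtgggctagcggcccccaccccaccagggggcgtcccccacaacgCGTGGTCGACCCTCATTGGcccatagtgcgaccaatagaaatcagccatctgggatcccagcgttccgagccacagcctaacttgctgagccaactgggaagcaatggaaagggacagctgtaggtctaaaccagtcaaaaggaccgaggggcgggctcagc
Canx: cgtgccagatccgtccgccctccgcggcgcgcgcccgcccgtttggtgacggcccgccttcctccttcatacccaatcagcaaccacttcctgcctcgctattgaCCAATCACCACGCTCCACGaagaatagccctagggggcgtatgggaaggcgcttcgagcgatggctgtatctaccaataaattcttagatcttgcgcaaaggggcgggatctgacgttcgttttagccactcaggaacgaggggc
Pdia6: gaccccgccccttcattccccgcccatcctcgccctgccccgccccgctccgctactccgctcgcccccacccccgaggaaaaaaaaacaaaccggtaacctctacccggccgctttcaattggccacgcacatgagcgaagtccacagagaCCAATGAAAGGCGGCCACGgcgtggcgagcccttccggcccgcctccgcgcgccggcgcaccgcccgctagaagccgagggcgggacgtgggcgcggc

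The element began 65 bases before the start of Hspa5, 212 and 107 bases before that of Hsp90b1, 162 before Calr, 145 before Canx and 98 before Pdia6. In Calr and in the second match of Hsp90b1 it runs on the opposite strand. Of 32851 promoters in the RefSeq table, 39 (0.119%) hold it, and of 7129 measured genes with a promoter 12 do. Among these 12 genes, 8 were late higher and 4 overlapped, beside 1633 late higher among the 7129. Of 813 late lower genes with a promoter 0 held it, beside 0.168% of all 7129. Of the 12, 6 are on the chaperone list, and 5 of those were late higher, while in Dnajc3 the sides overlapped. The count of 8 thus restates that of the chaperone list in part. Pdia3, which was late higher, and Dnajb9, which was late lower, are not among the 12. The other 6 included Syvn1, the ubiquitin ligase of ER-associated degradation, at 0.16 and 0.18 early and 0.27 and 0.25 late, and Alg12, a mannosyltransferase of glycoprotein assembly, at -0.033 and -0.021 early and 0.12 and 0.085 late; both were late higher, as was Pan2, while Creld2, Derl3 and Hnrnpa3 overlapped. The heat shock element, GAA and TTC with 2 bases of any kind between them, was in 6 of 21 chaperone genes with a promoter, as was the ER stress element. It was in 7.04% of late higher, 8.12% of late lower and 7.52% of all measured genes, and in 7.86% of all promoters. Both elements were searched after the values had been seen. A match says only that these letters are present.

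**Figure D1:**
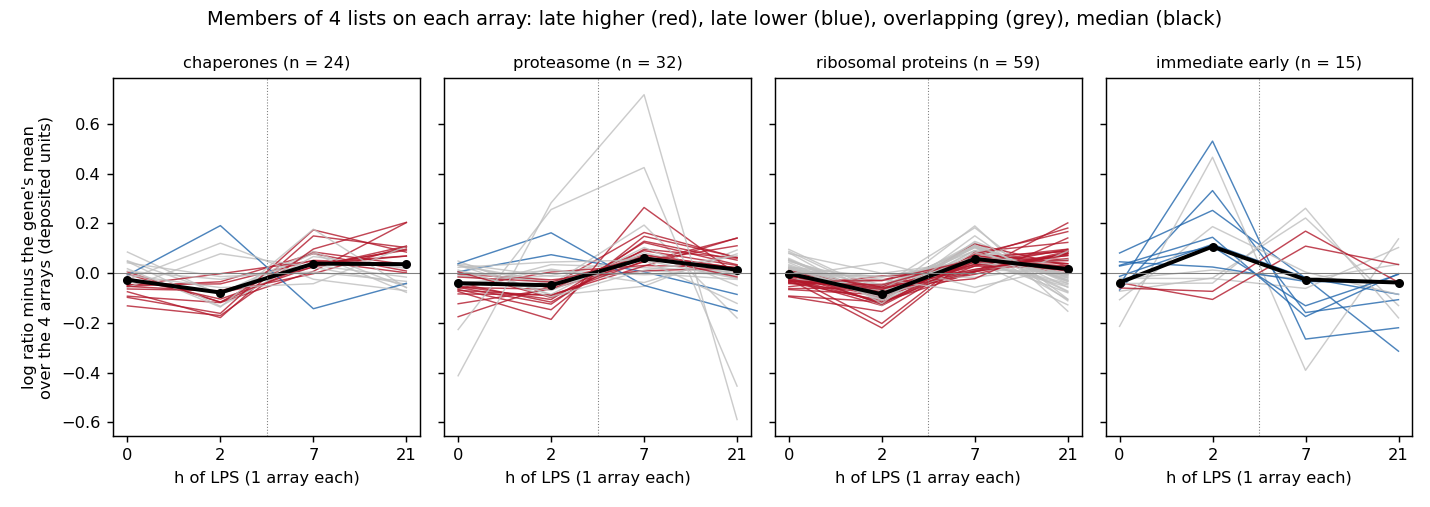
Centred log ratio of each list member minus the gene's own mean over the 4 arrays (vertical axis, deposited log units) at 0, 2, 7 and 21 h of LPS (horizontal axis, 1 array each), for 24 chaperone, 32 proteasome, 59 ribosomal protein and 15 immediate early genes. Red lines are late higher, blue late lower and grey overlapping genes, and black is the median; the median runs upwards between 2 and 7 h in the first 3 lists and downwards in the immediate early genes, whose highest point is at 2 h.

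Ribosomal protein genes were late higher in 28 of 59 (47.5%) and late lower in 0, with a median difference of 0.078. Their difference from the early mean was above 0 in 54 of the 59. Rps4x, a protein of the small subunit, was at -0.28 and -0.34 early and -0.11 and -0.000061 late and late higher on each of 4 probes. Rplp0, the stalk protein of the large subunit, was at -0.25 and -0.27 early and -0.12 and -0.097 late, with each of 6 probes late higher. In both genes the early arrays were almost level and the late arrays stood above them. Most of these genes lay low on the scale: 43 of the 59 were in the lowest 20% of all genes by mean ratio, in which 36.2% of genes were late higher. The other 4 bands of 20% held 24.4%, 21.6%, 18.2% and 13.7% late higher genes in rising order of mean ratio, and late lower genes made up 5.09% of the lowest and 14.8% of the highest band. After loess correction for the mean ratio, 18 of the 59 were late higher, beside 15.8% of all genes. The count was 48 without 0 h, beside 40.5% of all genes, and 51 without 21 h, beside 48.1%. Proteins of the ribosome have many near-identical pseudogenes, which a cDNA probe may not separate.

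The proteasome list had 15 of 32 measured members late higher (46.9%) and 2 late lower, with a median difference of 0.054. Of the 32, 2 lay in the lowest 20% by mean ratio. Among subunits of the catalytic core, Psmb3 was at -0.16 and -0.24 early and 0.052 and -0.032 late, Psma3 at -0.029 and 0.031 early and 0.14 and 0.24 late and Psma1 at 0.12 and 0.24 early and 0.46 and 0.35 late. In each of them both late arrays cleared both early arrays by at least 0.1. Psmd12, a subunit of the regulatory cap, was at 0.11 and 0.092 early and 0.23 and 0.29 late, late higher on all 4 of its probes. Psmd3, another subunit of the cap, was late lower on both of its probes, at 0.31 and 0.43 early and 0.22 and 0.12 late. The interferon-inducible activator Psme2 had its 2 and 7 h values (0.89 and 1.06) above both others and therefore overlapped, as did Psmd13. Without the 21 h array 23 of the 32 were late higher, beside 48.1% of all genes.

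Genes of the lysosome were late higher in 10 of 23 (43.5%) and late lower in 2. Grn, the precursor of the lysosomal granulins, was at 0.29 and 0.41 early and 0.54 and 0.55 late, and the proton pump subunits Atp6v1h and Atp6v0d1 differed by 0.18 and 0.15. Late lower were Scarb2, a membrane protein that delivers glucocerebrosidase to lysosomes, at 0.69 and 0.61 early and 0.50 and 0.39 late, and the mannosidase gene Man2b1, at 0.55 and 1.16 early and 0.29 and 0.47 late. After quantile normalization 5 of the 23 were late higher, close to the 19.7% of all genes.

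Subunits of the respiratory chain and ATP synthase were late higher in 23 of 42 (54.8%) and late lower in 2, with a median difference of 0.086. Members of each complex were among them. Ndufb5 and Ndufv2 of complex I differed by 0.16 and 0.20, Sdha of complex II by 0.19, Uqcrb of complex III by 0.19 and Cox5b of complex IV by 0.16. Cox5b was at -0.17 and -0.20 early and -0.054 and 0.0090 late, with each of 4 probes late higher. Each of these 5 differences was below 2-fold, and in Uqcrb the early values lay further apart than the gap of 0.12 between the sides. Late lower were Sdhc and Uqcrc2, by less than 0.06 each. In this list 19 of 42 genes lay in the lowest 20% by mean ratio. After loess correction for the mean ratio 13 of the 42 were late higher, beside 15.8% of all genes. Outside the list, Cox7a2l, which takes part in joining respiratory complexes into supercomplexes, was late higher on each of 3 probes, at -0.23 and -0.24 early and -0.027 and 0.065 late.

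Cholesterol synthesis had 6 of 15 measured members late higher and 1 late lower. Idi1, the isomerase of isopentenyl diphosphate, was at -0.11 and -0.11 early and 0.12 and 0.11 late, with the narrowest spread within sides of the 15. Cyp51, a demethylase of lanosterol, was at -0.043 and -0.044 early and 0.084 and 0.24 late and Fdft1, squalene synthase, at -0.23 and -0.26 early and -0.13 and -0.067 late. Mvk, mevalonate kinase, was late lower, with a difference of -0.096. Without the 7 h array 12 of the 15 were late higher, beside 39.6% of all genes. In lipid uptake and storage 5 of 13 (38.5%) were late higher and 0 late lower, among them the galectin gene Lgals3, at 0.40 and 0.49 early and 0.59 and 0.62 late, and the scavenger receptor gene Cd36, at 0.64 and 0.65 early and 0.75 and 0.72 late.

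**Figure D2:**
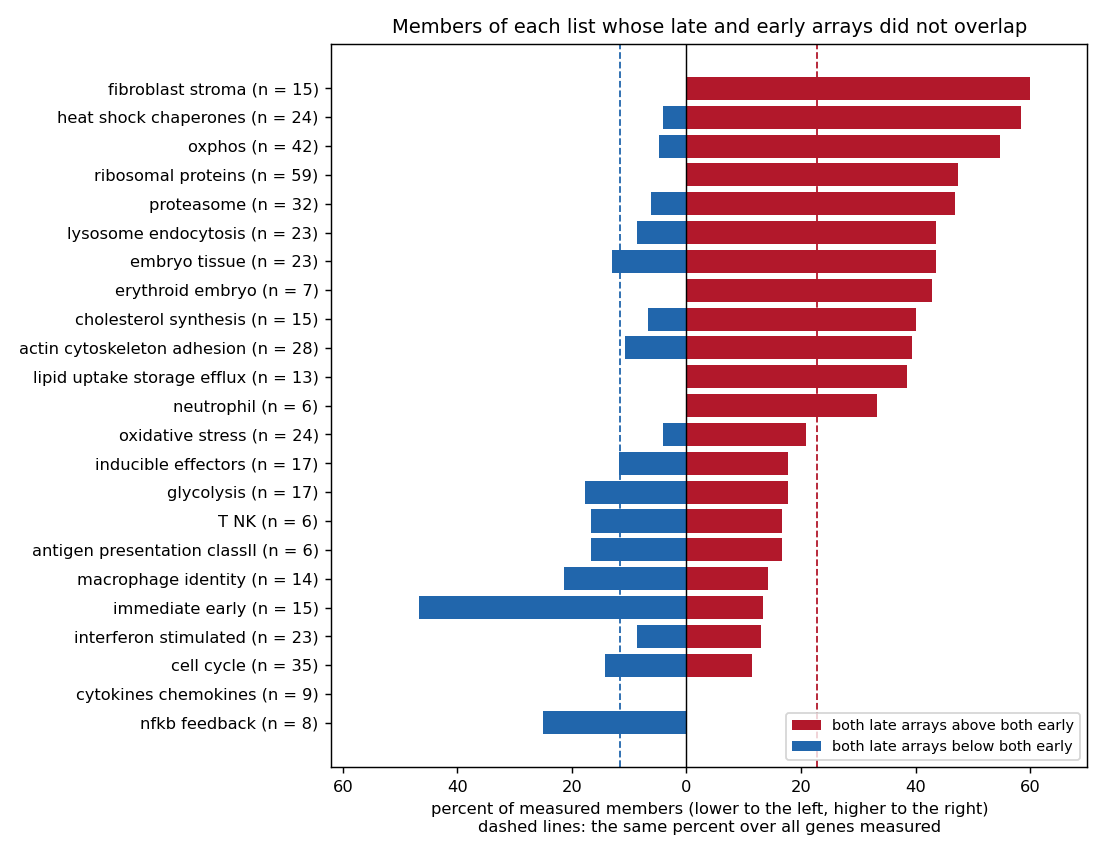
Percent of the measured members of each list with both late arrays above (red, to the right) or below (blue, to the left) both early arrays, for lists with at least 6 measured members (n in brackets); dashed lines give 22.8% and 11.6%, the shares over all 8839 genes. Fibroblast, chaperone and respiratory chain genes have the longest red bars (60.0%, 58.3% and 54.8%), and immediate early genes the longest blue bar (46.7%).

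Immediate early genes were the list with most members on the lower side: 7 of 15 (46.7%, beside 11.6% of all genes) were late lower and 2 late higher. Ier2 was at 0.15 and 0.73 early and -0.070 and -0.024 late, a difference of -0.48 (SE 0.20, limma). Fos, a subunit of the factor AP-1, was at 0.36 and 0.54 early and 0.26 and -0.031 late, and its partner Junb at 0.31 and 0.71 early and 0.22 and 0.27 late. In all 3 genes the 2 h array was the highest of the 4, and the 0 h array lay nearer to the late arrays than to the 2 h array in Ier2 and Junb. Klf2, Klf6, Ier3 and Nr4a1 were late lower with smaller differences, between -0.071 and -0.18. Late higher were Ier5, at -0.24 and -0.31 early and -0.091 and -0.17 late, and the antiproliferative gene Btg2. Egr2 overlapped, with 0.998 at 2 h and 0.67 at 21 h, and so did Atf3, Jun, Jund, Fosl2 and Klf4. The list's median difference was -0.081, and 0.028 without the 2 h array. There 7 members were late lower, beside 20.9% of all genes. Members late lower in the full comparison must stay so when an array is left out, so that count is no separate reading. On the 0.5 h array, which the condition did not use, Ier2 was at 1.48 and Fos at 0.71, above all 4 other arrays. Junb was at 0.58 there, Klf6 at 0.066 and Ier3 at 0.011, within the range of the 4, while Klf2 and Nr4a1 were at -0.19 and -0.20, below them.

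Among other genes that LPS is known to induce, few separated the sides. In the list of interferon-stimulated genes 3 of 23 were late higher and 2 late lower, shares (13.0% and 8.70%) below those of all genes. Eif2ak2, the RNA-activated kinase PKR, was the late lower member with the widest gap, at 0.55 and 0.62 early and 0.21 and 0.29 late and late lower on both probes. Its promoter holds the interferon response element GAAA and GAAA with 2 bases of any kind between them, shown in capitals in 30 bases that begin 9 bases after the gene's start (RefSeq, GRCm38.p6, chr17:78882535-78882564, minus strand):
Eif2ak2: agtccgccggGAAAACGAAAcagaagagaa

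That element is in 3.44% of all promoters and in 9 of 20 interferon-stimulated genes with a promoter. Stat2, a transducer of interferon signals, was late higher, at 0.035 and 0.15 early and 0.26 and 0.35 late. Of 9 cytokine and chemokine genes and 4 genes of LPS recognition all overlapped. Of 8 genes of NF-kB feedback, the inhibitor gene Nfkbia and the subunit gene Rela were late lower, with differences of -0.14 and -0.10. Their separations were only -0.010 and -0.0052. Among 17 inducible effectors, Plaur, the urokinase receptor, was late lower at 0.82 and 0.997 early and 0.47 and 0.26 late, a difference of -0.54 (SE 0.11, limma), and had 2.10 on the 0.5 h array. Both late values lay below both early ones by at least 0.345 on this 1 probe. Mmp9, a matrix metalloproteinase, was late higher at -0.56 and -0.68 early and -0.32 and -0.37 late, as were Vcam1 and Socs1, whose late side cleared the early side by only 0.0085 and 0.0047. Of 6 genes of class II antigen presentation H2-Aa was late lower and the lysosomal thiol reductase Ifi30 late higher.

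Macrophage identity genes did not share a side: 2 of 14 were late higher and 3 late lower. Fcgr2b, the inhibitory Fc receptor, was late higher at -0.12 and -0.29 early and 0.043 and 0.086 late, and Ncf4, an oxidase subunit, differed by 0.096. Coro1a, a coronin of leukocytes, was late lower at 0.48 and 0.44 early and 0.35 and 0.32 late, as were Tyrobp and Aif1, with differences of -0.12 and -0.026. By itself, 0 of the 3 probes of Aif1 was late lower. Lyz2, at 1.12 and 1.21 early and 1.32 and 1.20 late, Lcp1 and Lilrb4a overlapped. In the actin and adhesion list 11 of 28 (39.3%) were late higher and 3 late lower. Capg, an actin-capping protein of macrophages, was at 0.38 and 0.47 early and 0.61 and 0.75 late, and Zyx, the focal adhesion protein zyxin, was the late lower member with the widest gap, at 0.19 and 0.29 early and 0.00037 and -0.056 late. Cfl1, Rac2 and Itgb1 were late higher by 0.15, 0.14 and 0.13.

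Cell cycle genes (4 late higher and 5 late lower of 35), glycolysis (3 and 3 of 17) and genes of oxidative stress (5 and 1 of 24) had late higher shares below that of all genes. Mcm2, a subunit of the replicative helicase, was late lower at -0.029 and 0.0060 early and -0.30 and -0.28 late, whereas Mcm6 of the same complex was late higher at 0.22 and 0.24 early and 0.33 and 0.55 late. Nfe2l2, the transcription factor NRF2, was late higher at 0.39 and 0.48 early and 0.68 and 0.61 late, as were the metallothionein Mt1 and the peroxiredoxin Prdx1, by 0.18 and 0.10.

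Markers of tissues that the reference embryo holds and macrophages should lack were among the late higher genes. Of 23 embryo tissue markers 10 (43.5%) were late higher and 3 late lower, and of 15 fibroblast markers 9 (60.0%) and 0. The late mean lay above the early mean in 16 embryo markers and below it in 7, and in 13 and 2 fibroblast markers. The 3 late lower embryo markers are not named here. Afp, the fetal liver protein, was at -1.30 and -1.62 early and -0.87 and -1.14 late, Alb, the serum albumin, at -1.78 and -1.99 early and -1.63 and -1.56 late, and Col1a2, a chain of collagen I, at -1.63 and -1.77 early and -1.53 and -1.21 late. All 3 lay far below 0 on every array, the side on which the embryo RNA holds more of the message, and were less low on both late arrays than on both early arrays. On the 0.5 h array Afp was at -0.43 and Alb at -1.19, less low than on either late array, and Col1a2 at -2.33, lower than on all 4 others. The summed ratio of the embryo list was -15.79 and -19.07 early and -14.95 and -15.96 late, and that of the fibroblast list -11.06 and -13.66 early and -10.71 and -9.79 late, so the 2 h array had the lowest sum in both. Of these lists 21 of 23 and 13 of 15 genes lay in the lowest 20% by mean ratio. After quantile normalization 3 embryo and 3 fibroblast markers were late higher, beside 19.7% of all genes. After loess correction for the mean ratio 0 and 2 were, beside 15.8%. Scaling each array to one median absolute deviation left 5 embryo markers, beside 22.4%. Without the 0 h array 16 embryo markers were late higher, beside 40.5% of all genes. After the loess correction, 13 of 24 chaperone genes and 14 of 32 proteasome genes were late higher, beside 15.8% of all genes. The correction subtracts the late minus early trend along the mean ratio. The median difference was 0.083 in the lowest 20% of genes and -0.026 in the highest. How far a list moved is therefore partly set by where it lies, and 1 chaperone gene lay in the lowest 20%.

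**Figure D3:**
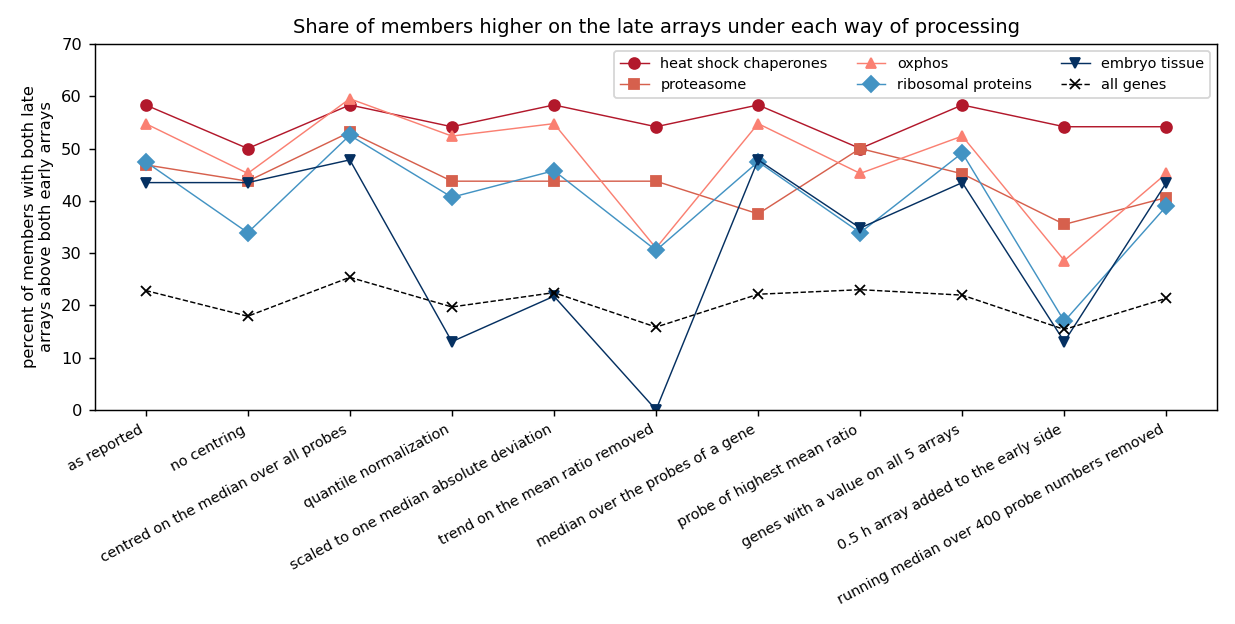
Percent of the measured members of 5 lists, and of all genes (dashed), with both late arrays above both early arrays (vertical axis) under each way of processing the 4 arrays (horizontal axis). Chaperones stay at 12 to 14 late higher genes in all 11 ways, whereas embryo tissue markers go from 43.5% as reported to 13.0% after quantile normalization and 0% after loess correction for the mean ratio. That correction acts most in the lowest 20% of genes by mean ratio, which held 21 of 23 embryo markers and 1 of 24 chaperones.

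Markers of other marrow and blood cells gave few readings. Of 6 neutrophil genes 2 were late higher, the granule genes Mpo, at -0.12 and -0.21 early and 0.12 and 0.0071 late, and Camp. Of 7 erythroid genes 3 were late higher, among them the adult globins Hbb-b1, at -1.89 and -2.12 early and -1.75 and -1.84 late, and Hba-a1. In the other 4 the sides overlapped with the late mean below the early mean, and the list's median difference was -0.024. In the T and NK cell list Cd3d was late higher, at 0.090 and 0.0075 early and 0.64 and 0.27 late on 1 probe, and Nkg7 late lower, out of 6. Among 4 B cell genes Ighm was late higher and Vpreb3 late lower, 1 of 3 megakaryocyte genes was late higher, and 2 dendritic and 3 mast cell genes overlapped.

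Outside the lists, the late higher genes with the widest gaps were mostly read from 1 probe. 1110002E22Rik had the widest, at -0.70 and -0.83 early and -0.23 and 0.12 late. It was followed by the carbonic anhydrase gene Car3, at -1.44 and -1.66 early and -0.71 and -1.05 late, where only 1 of 2 probes separated the sides. Tmem213 and Svep1, an extracellular matrix gene, differed by 0.62 and 0.68 on 1 probe each. In most of these genes the ratio was far below 0 on the early arrays: 14 of the 15 had an early mean below 0. Dhrs3, a reductase that turns retinal into retinol, was the one with an early mean above 0, at 0.33 and 0.34 early and 0.67 and 0.65 late, 2.09-fold, with both probes late higher. Its early values lay within 0.02 of each other, and so did its late values. Others were Pxdn, a peroxidase of the extracellular matrix, at -1.03 and -1.26 early and -0.76 and -0.66 late on both of 2 probes, Ciao2b of iron-sulfur protein assembly, at -0.58 and -0.60 early and -0.30 and -0.28 late, and the zinc exporter gene Slc30a1, at -0.54 and -0.59 early and -0.21 and -0.30 late. Folr1, a folate receptor, Sncb, 1700125H03Rik, AW551984, Zfp87, Syde1 and Cela3b differed by 0.26 to 0.54; in Cela3b 3 of 4 probes were late higher.

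**Figure D4:**
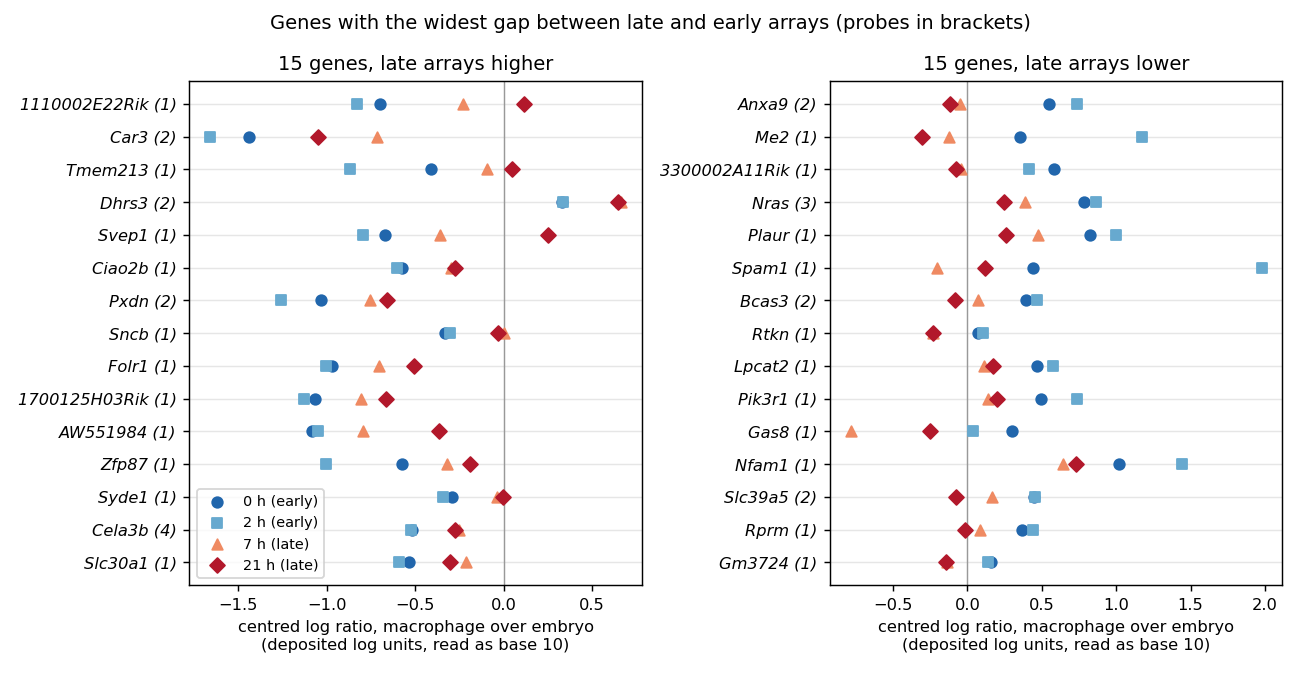
Centred log ratio, macrophage over embryo (horizontal axis, deposited log units read as base 10), on the 0, 2, 7 and 21 h arrays for the 15 genes with the widest gap in each direction (vertical axis, number of probes in brackets). Blue symbols are early and red symbols late arrays; late higher genes lie mostly below 0 and late lower genes mostly above 0 on the early arrays.

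Late lower genes with the widest gaps lay mostly above 0 on the early arrays. Me2, the mitochondrial malic enzyme, was at 0.35 and 1.18 early and -0.13 and -0.31 late, and Spam1, a hyaluronidase known from sperm, at 0.44 and 1.98 early and -0.20 and 0.12 late, each with its highest value by far at 2 h. Pik3r1, the regulatory subunit of phosphoinositide 3-kinase, was at 0.49 and 0.74 early and 0.13 and 0.20 late, and Lpcat2, an enzyme that makes platelet-activating factor in inflammatory cells, at 0.47 and 0.58 early and 0.11 and 0.17 late. Nfam1, an immune receptor with an activation motif, was at 1.02 and 1.45 early and 0.65 and 0.73 late. These 3 genes had early values within 0.5 of each other and late values within 0.1. Rprm, a gene of cell cycle arrest, differed by -0.37, Gas8 by -0.69, 3300002A11Rik by -0.55 and Gm3724 by -0.29, each on 1 probe. In 3 genes the probes disagreed: the gap rested on 1 of 2 probes in Anxa9 (difference -0.73, SD between probes 1.12), 1 of 3 in Nras (-0.51, SD 0.87) and 1 of 2 in Bcas3 (-0.44, SD 0.39). The probes of Anxa9 and Nras that separated the sides have the neighbouring numbers 12766 and 12770 and differed by -1.52 and -1.51.

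Genes read by more than 1 probe give a check within the arrays. Of 3121 such genes, 865 (27.7%) were late higher and 249 (7.98%) late lower by the mean of their probes. Every probe was late higher in 149 of the 3121 (4.77%) and late lower in 26 (0.833%). In most of the 865 and of the 249, therefore, at least 1 probe by itself did not separate the sides in that direction. B2m, the light chain of class I antigen-presenting molecules, was at 0.87 and 0.88 early and 1.07 and 1.07 late, with each of 3 probes late higher; the mean difference of 0.20 had an SD of 0.049 between probes. The early and the late values each lay within 0.005 of each other. Others with every probe late higher were Ythdf1, a reader of methylated RNA, at -0.073 and -0.0052 early and 0.22 and 0.25 late, Flii, an actin-remodelling protein, at -0.074 and -0.30 early and 0.14 and 0.14 late, and Acat1, a thiolase of ketone body metabolism, at -0.48 and -0.49 early and -0.27 and -0.29 late. Phf3, Mrpl30 of the mitochondrial ribosome and Anapc4 of the anaphase-promoting complex differed by 0.26, 0.29 and 0.26. Some probes of different genes have close numbers: 13924 of Zfp87, 13925 of Flii, 13931 of Mrpl30 and 13934 of Cox7a2l. These probes differed by 0.54, 0.50, 0.45 and 0.37. Probes 12580 of Phf3, 12594 of Flii and 12598 of Acat1 differed by 0.33, 0.15 and 0.19. Whether probes with close numbers share a local shift was not tested. On the lower side, besides Eif2ak2 and Psmd3, both probes were late lower in Slc39a5, a zinc importer, at 0.45 and 0.45 early and 0.16 and -0.077 late, in Best1, a chloride channel, at 0.56 and 1.07 early and 0.32 and 0.048 late, and in Col14a1, at 0.092 and 0.016 early and -0.12 and -0.13 late. Zfp654, Eapp, Fank1, Smarcd2 and 1700028I16Rik were late lower on both probes, with differences of -0.095 to -0.34.

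The 0.5 h array gives a reading that the condition did not use. It lay below both late arrays in 1389 of 1997 late higher genes (69.6%), beside 3819 of 8452 genes in all (45.2%), and above both late arrays in 582 of 942 late lower genes (61.8%), beside 36.4% of all. It is 1 array against the same 2 late arrays, and the genes were chosen by the values of those arrays. That choice by itself raises both shares above those of all genes. They are therefore descriptions and no independent support. With it added to the early side, 1300 genes (15.4%) were late higher and 637 late lower, of which 1284 and 572 were among those found without it. Late higher were then 10 of 59 ribosomal protein, 12 of 42 respiratory chain and 3 of 23 embryo genes. The ribosomal and embryo shares were thus close to that of all genes. Genes at the edge of the condition show how fine it is. Dcbld2, at -0.274358 and -0.277161 early and -0.274332 and -0.171906 late, was just inside the late higher side and Ppp1r1a, at -0.178533 and -0.118448 early and -0.118524 and 0.072534 late, just outside. On the lower side Pvalb, at -0.120131 and -0.042097 early and -0.120283 and -0.155259 late, was just inside and Syap1, at 0.079679 and 0.023385 early and 0.023403 and -0.094217 late, just outside.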

How the data were processed

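The authors deposited 1 log ratio per probe and array, read here as log10, with base, scanner, background correction, normalization and numerator dye not given in the sources used here. The base 10 reading and the direction were judged from the values. The arrays list 19828 probes. GEO's platform annotation pairs 14759 with 1 symbol and 170 with several, and 4899 are unnamed here; 14628 matched a RefSeq gene (GRCm38.p6) by Entrez identifier, which updated the symbol. Between 19571 and 19674 probes had a value on each of the 4 arrays. The number of arrays limits the precision.

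The median of an array over the 8839 genes with a value on all 4 arrays was subtracted, and the probes of a gene were averaged. Late minus early means were tested with limma 3.58.1 (lmFit and eBayes, R 4.3.3) on 2 arrays against 2, with Benjamini-Hochberg adjustment; p-values measure only the spread between arrays of a side, which are different times. No set test was run. The members and the 28 lists were chosen with earlier results of these data known. Genes were named by rule: the 15 widest gaps in each direction, the 10 widest in each direction with every probe on the same side, up to 4 members per list and direction, and the genes at the edge of the condition. Further list members were named after their values were seen. Of the 15 late lower genes with the widest gaps, 1 is not reported here.

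Alternatives were no centring, centring on all probes, quantile normalization, a common median absolute deviation, loess correction for the mean ratio, other ways to join probes, genes on all 5 arrays, the 0.5 h array added to the early side, other size rules, leaving out each array in turn and limma with an intensity trend. A running median over 400 neighbouring probe numbers, shares within bands of the mean ratio, the ER stress and heat shock elements and symbol families were added after seeing the data. Promoters ran from 250 bases before to 50 after each RefSeq start. In simulated data for 8839 genes, 30 of 50 genes raised 2-fold and 39 of 50 lowered 2-fold separated the sides, and 50 and 48 of 50 at 4-fold; limma called 5, 2, 29 and 26 of these at an adjusted p under 0.05. Tables and plots were made with Python 3.11.15 (pandas 2.3.3, numpy 2.4.6, statsmodels 0.14.6, scipy 1.17.1 and matplotlib 3.10.9).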

Additional observations from a re-analysis of the deposited data

How the results depend on the processing

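No adjusted limma call was made under any alternative, and the smallest adjusted p ranged from 0.12 without the 0 h array to 0.993 after loess correction for the mean ratio. Of 652 comparisons of 47 named genes with their main value, 550 moved by less than the spread within a side, 100 moved further and 2 reversed: Cela3b was at -0.014 with the probe of highest mean ratio, and 1700028I16Rik at 0.17 with the 0.5 h array added. Of 392 comparisons of list medians 315 moved less, 74 moved further and 3 reversed, to 0.028 for immediate early genes without the 2 h array, 0.0060 for T and NK genes without the 7 h array and -0.0045 for dendritic genes with the 0.5 h array added. Counts that moved over 1.5 times were, late higher unless stated, as follows. Quantile normalization gave 54 genes past 2-fold, 5 lysosome, 3 embryo and 3 fibroblast genes, with 19.7% of all genes late higher. Scaling gave 5 embryo genes. Loess correction for the mean ratio gave 36 genes past 2-fold, 18 ribosomal, 13 respiratory chain, 0 embryo and 2 fibroblast genes. With genes on all 5 arrays 85 were late lower past 2-fold. The 0.5 h array on the early side gave 1300 higher (15.4%) and 637 lower genes, 211 lower past 2-fold, and 10 of 59 ribosomal, 12 of 42 respiratory chain and 3 of 23 embryo genes. Read in log2 units, 2-fold left 0 higher and 7 lower; a rule of 1.5-fold gave 505 and 352, and 2-fold in the separation itself 5 and 8. Leaving out each array in turn gave 2860 to 4254 higher genes (3576 without 0 h, 3502 without 7 h) and 1851 to 2994 lower (2279 without 0 h, 2456 without 21 h), 102 to 376 higher past 2-fold (287 without 0 h, 322 without 21 h) and 97 to 543 lower (423 without 7 h, 401 without 21 h), 38 to 794 genes at an unadjusted limma p under 0.05 (443 without 0 h, 518 without 21 h), and 28 to 51 ribosomal (48 without 0 h), 18 to 23 proteasome, 7 to 12 cholesterol and 10 to 16 embryo genes; fewer arrays make the condition easier to meet, and the lone array is assumed to vary like the other side. No paired analysis was possible because the labels give no replicate numbers. The cause of the other shifts was not tested. Signal over background is unknown, so dim probes could not be set apart.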

Other observations

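Families of genes with the same leading letters in their symbol, with at least 20 measured genes each, were counted after the lists had been read. Ribosomal proteins of the small subunit had the highest late higher share (Rps, 13 of 28, 46.4%), followed by the collagen genes (Col, 11 of 24, 45.8%, with 4 late lower). Atp (18 of 51, 35.3%) includes ATP synthase and proton pump genes of the respiratory and lysosome lists. Next were the Mediator subunits Med (7 of 20, 35.0%) and the keratins Krt (8 of 23, 34.8%, with 0 late lower). Initiation factors (Eif) had 12 of 40 late higher. At the other end were Ttc (2 of 23), Cdc (2 of 22), Wdr, the WD repeat proteins (3 of 32, with 6 late lower), and Polr, the RNA polymerase subunits (2 of 20). Mitochondrial ribosomal proteins (Mrpl) had 10 of 46 late higher, 21.7%, close to the 22.8% of all genes, whereas cytosolic ones (Rpl) had 20 of 45. Solute carriers (Slc, 32 of 144) and zinc finger proteins (Zfp, 19 of 100) also lay near the share of all genes.

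The share of late higher probes varied along the probe numbers: over 44 stretches of 400 numbers with at least 100 named probes it ran from 6.62% to 37.6%, and that of late lower probes from 3.51% to 21.5%. Of 2099 probes numbered above 17600, none of which has a gene name here, 3.76% were late higher and 36.4% late lower. With a running median over 400 probe numbers removed, 1886 genes were late higher and 1235 late lower, of which 1512 and 818 were among those reported. Whether position on the slide goes with these shares was not tested.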
